A study of Mus musculus with 2 samples.

Results

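Metallothioneins and zinc transporters were examined in mouse fetal liver erythroid progenitors that over-expressed ESlncRNA, a long noncoding RNA. The set held 8 genes, namely the metallothioneins Mt1 and Mt2, their activator Mtf1, the exporters Slc30a1 and Slc30a10, and the importers Slc39a8, Slc39a10 and Slc39a14. They were found as the non-control probes that carry those names, 10 of 55681 probes on the array, whose probes stand for 36315 genes or lincRNA intervals. The genes were chosen by family and with their ratios and signals on these same arrays already known, so their values are given as a description with no test.

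The study hybridised 2 two-colour arrays, each with 1 vector sample in Cy3 and 1 ESlncRNA sample in Cy5. The dyes were not swapped, so an effect of dye and one of ESlncRNA cannot be told apart. Both groups were lineage-negative cells from C57BL/6 fetal liver at E14.5 (embryonic day), transduced with the empty vector or with ESlncRNA and sorted as GFP+. No label states that the replicates were grown or dissected separately, so a spread between arrays may be technical. Of 11 erythroid markers measured, 2 did not pass the test and 9 rose, among them Klf1, the erythroid activator, at a log2 ratio of 0.87. The 2 that did not pass differed between replicates 1 and 2, with Slc4a1 at -0.45 and 1.48 and Alas2 at -0.02 and 0.77. Of all genes measured, 26.3% were called higher, a share that moved with the scaling. No spot was saturated (0 on each array). Every ratio below is the log2 ratio of ESlncRNA over vector, background-corrected and loess-normalized, as the mean and SD over n = 2 arrays.

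Metallothioneins are small, cysteine-rich proteins that bind zinc, copper and cadmium in the cytosol. MTF1 is a zinc-sensing transcription factor that binds metal response elements in the promoters of metallothionein genes and of the exporter Slc30a1. Slc39a proteins (ZIP) bring zinc into the cytosol and Slc30a proteins (ZnT) take it out, and mouse red cells and their precursors are known to carry Slc30a1, Slc39a8 and Slc39a10.

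The probe targets of the 4 genes with the largest ratios are shown by the first 30 of their 60 bases, because each value below is the signal of that 1 oligonucleotide. On mm9 the probe of Mt1 (NM_013602) lies at chr8:96704165-96704224 and that of Mt2 (NM_008630) at chr8:96697371-96697430, 6794 bases apart on the forward strand. The probe of Slc30a10 (NM_001033286) lies at chr1:187292107-187292166 and that of Slc39a8 (NM_001135150) at chr3:135551169-135551228. No exon or UTR annotation of mm9 was used here. The longest run of bases that the Mt1 and Mt2 probes share is 7 of 60.
Mt1: cctgtttactaaacccccgttttctaccga
Mt2: agaagcctagccttttttgtacaaccctga
Slc30a10: acctgtatcggatccaaatcttcagtgtag
Slc39a8: gtgatgagaattagtaatagaagccaagtt

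The promoters of Mt1, Mt2, Slc30a1 and Slc30a10 are shown because each holds the core of the response element of MTF1, for which they were picked. The sequences are the 250 bases before the annotated start, from RefSeq on GRCm38.p6, at chr8:94178839-94179088, chr8:94172368-94172617, chr1:191906531-191906780 and chr1:185454598-185454847, all on the forward strand. Capitals mark the core of the metal response element, searched as TGCGCNC and TGCACNC on both strands.
Mt1: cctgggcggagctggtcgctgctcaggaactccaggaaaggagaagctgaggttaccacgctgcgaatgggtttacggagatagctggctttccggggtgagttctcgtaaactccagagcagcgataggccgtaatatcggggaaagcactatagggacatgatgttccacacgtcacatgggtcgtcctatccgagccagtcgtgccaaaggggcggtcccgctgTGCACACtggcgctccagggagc
Mt2: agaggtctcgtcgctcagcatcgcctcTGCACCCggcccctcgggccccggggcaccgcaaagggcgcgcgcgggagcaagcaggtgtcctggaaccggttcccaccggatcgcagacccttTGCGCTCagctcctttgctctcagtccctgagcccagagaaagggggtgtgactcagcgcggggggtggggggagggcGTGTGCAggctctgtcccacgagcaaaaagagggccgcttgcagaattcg
Slc30a1: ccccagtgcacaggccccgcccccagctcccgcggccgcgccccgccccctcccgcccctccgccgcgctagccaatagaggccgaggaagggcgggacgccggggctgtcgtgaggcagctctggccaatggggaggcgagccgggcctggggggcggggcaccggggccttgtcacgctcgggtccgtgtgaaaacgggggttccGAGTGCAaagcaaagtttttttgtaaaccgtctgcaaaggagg
Slc30a10: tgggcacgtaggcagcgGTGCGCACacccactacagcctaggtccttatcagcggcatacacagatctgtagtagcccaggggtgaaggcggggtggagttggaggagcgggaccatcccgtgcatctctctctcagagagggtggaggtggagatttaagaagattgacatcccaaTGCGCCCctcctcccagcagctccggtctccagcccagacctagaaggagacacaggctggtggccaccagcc

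Within these windows Mt2 and Slc30a10 had 3 matches each, and Mt1 and Slc30a1 had 1 each. Bases outside the windows, including all after the annotated start, were not searched, so these are not counts for whole promoters. In Slc30a10 the 2 matches farthest from the start, at -233 and -232, overlap on opposite strands. Mt1 had its match 23 to 17 bases before the annotated start and Slc30a1 43 to 37 bases before it. Of the 9 windows of 7 member genes, 5 held a match, the fifth being 1 of the windows of Slc39a8. The windows of Mtf1 and Slc39a10, whose ratios were also above 0, held none (0 matches). Among 32851 windows of this length, 21.4% held at least 1 match, 12.5% held TGCGCNC, 10.4% held TGCACNC and 1.26% held 3 or more matches. A match is a string of letters, not a measured binding site.

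Both metallothioneins were bright in the vector cells already and brighter in the ESlncRNA cells. The Mt1 spot gave 58806 and 54295 in the vector channel and 317171 and 341656 in the ESlncRNA channel of replicates 1 and 2, before any correction. The Mt2 spot gave 41269 and 38364 in the vector channel and 334385 and 337530 in the ESlncRNA channel. For both genes the 2 ESlncRNA signals lay above the 2 vector signals, but so they did for all 8 members, also Slc39a14, whose normalized ratio was below 0. The share of all probes with such a gap was not counted. The median spot signal of the array, local background included, was also higher in Cy5, at 67.8 and 76.3 against 35.9 and 39.5 in Cy3. Part of that gap is background, which at the Mt1 spot was 49.5 and 50 in Cy5 against 24 and 19 in Cy3. The raw ratios are corrected neither for background nor for dye, so they are not changes by themselves.

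After normalization Mt1 had log2 ratios of 1.093 and 1.092, a mean of 1.09 ± 0.00073 (SD, n = 2 arrays) or 2.13-fold higher. Mt2 had 1.70 and 1.60, a mean of 1.65 ± 0.072 or 3.14-fold higher. Among the 19864 genes measured, the ratio of Mt1 stood at the 99.5th percentile and that of Mt2 at the 99.9th. The other metallothioneins measured were Mt4 and Mt3. Mt4 had ratios of 0.20 and 0.40, a mean of 0.30 (limma adjusted p = 0.00642), and its vector channel was well above background on 1 of 2 arrays. Its size moved with the background correction, to 0.71 with an offset of 0 and to 1.24 with the processed signals, where the arrays gave 0.74 and 1.74 and the call was lost. That last value is above the 0.93 of Mt1 under the same setting. Mt3, the form known from brain, was at 0.07 and 0.17 and did not pass (limma adjusted p = 0.0837), but passed, at 0.46 each, under median centring and from the processed signals. The median of all genes was 0.34 and 0.11 under those settings. Above that median Mt3 stood by 0.12 and 0.35, against 0.15 with loess.

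**Figure D1:**
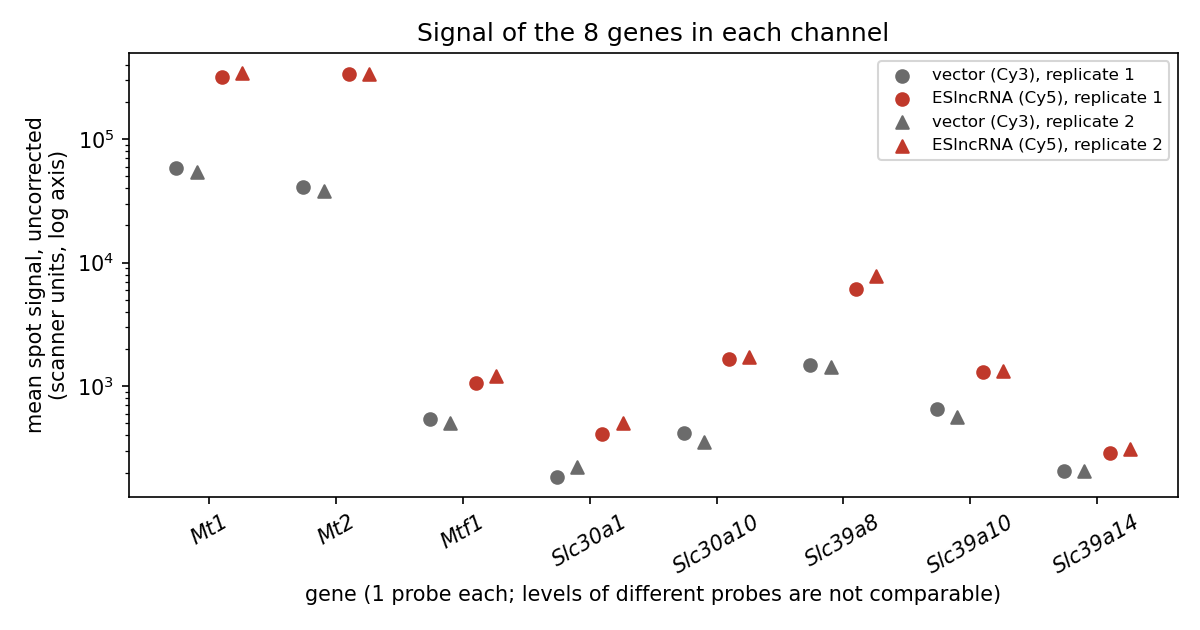
Uncorrected mean spot signal (scanner units, log axis) of the 8 genes, 1 probe each, in the vector channel (grey) and the ESlncRNA channel (red) on the arrays of replicate 1 (circles) and replicate 2 (triangles). For every gene both red points lie above both grey points, with the widest gaps at Mt2, Mt1, Slc39a8 and Slc30a10, while Slc39a14 shows the smallest. The median uncorrected spot signal of the array, background included, was also higher in Cy5.

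Because both metallothioneins lie at the bright end, where loess left a rising trend, their ratios were set beside those of other bright genes. The 398 genes in the brightest 2% had a median log2 ratio of 0.33 and a range from -0.69 to 1.65. Mt2 was the highest of those 398, and 4 of them had a larger ratio than Mt1. That group was widened from 1% to 2% once Mt1 and Mt2 were seen to lie outside it. Both genes were also chosen with these values known, so the ranks and distances are a description with no test. Above the median of these bright genes Mt1 stood by 0.77 and Mt2 by 1.32. With median centring in place of loess the bright genes had a median of 1.42, Mt1 was at 2.17 and Mt2 at 2.70, which is 0.75 and 1.28 above them. With the scanner software's processed signals the bright median was 0.06 and the genes were at 0.93 and 1.45, which is 0.87 and 1.39 above it. The absolute fold of these genes therefore moved with the scaling, and the distance from other bright genes moved less.

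**Figure D2:**
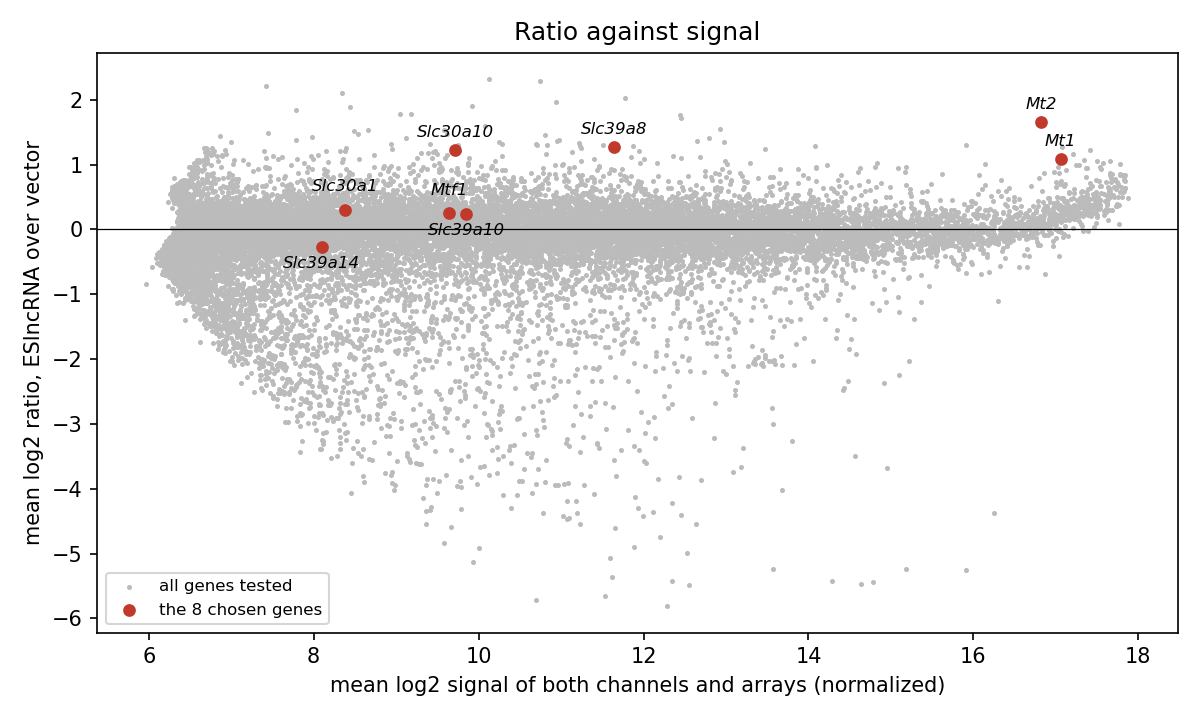
Mean log2 ratio of ESlncRNA over vector against mean log2 signal of both channels and arrays, for 19864 genes (grey points) and the 8 chosen genes (red). Mt1 and Mt2 lie at the bright end above the upturn of the other bright genes, Slc30a10 and Slc39a8 lie near the upper edge at lower signals, and the other members lie inside the bulk.

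Mtf1, the metal-responsive activator, was slightly higher. Its brightest probe, at chr4:124526365-124526424 on mm9, gave 540 and 499 in the vector channel and 1062 and 1217 in the ESlncRNA channel. The log2 ratios were 0.23 and 0.29, a mean of 0.26 ± 0.041 (SD, n = 2 arrays) or 1.20-fold higher. A dimmer probe gave 0.25 and 0.18, the same direction. The remaining Mtf1 probe stayed near background in both channels of both arrays and gives no ratio.

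The exporters differed in size. Slc30a10, a transporter known mainly for manganese export in human and mouse, gave 414 and 350 with the vector and 1650 and 1732 with ESlncRNA. Its log2 ratios were 1.20 and 1.27, a mean of 1.23 ± 0.050 or 2.35-fold higher, with both arrays alike. Slc30a1, the plasma membrane zinc exporter and a classical MTF1 target, gave 184 and 220 with the vector and 413 and 503 with ESlncRNA. Its log2 ratios were 0.37 and 0.22, a mean of 0.30 ± 0.11 or 1.23-fold higher.

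The importers went both ways. Slc39a8, which carries zinc, iron, manganese and cadmium, gave 1473 and 1430 with the vector and 6128 and 7733 with ESlncRNA. Its log2 ratios were 1.21 and 1.33, a mean of 1.27 ± 0.084 or 2.41-fold higher. Slc39a14, its closest relative in the family and an importer of the same metals in liver, gave 204 and 205 with the vector and 290 and 310 with ESlncRNA. Its log2 ratios were -0.23 and -0.33, a mean of -0.28 ± 0.075 or 1.21-fold lower. The raw signals of Slc39a14 are higher in Cy5, and the sign turns only once the difference between the dyes is corrected for. With median centring its value was 0.022, while the median of all genes was then 0.34. Slc39a10, an importer known to be held down by MTF1 in mouse cells, gave 654 and 563 with the vector and 1299 and 1324 with ESlncRNA. Its log2 ratios were 0.234 and 0.235, a mean of 0.23 ± 0.0010 or 1.18-fold higher.

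In order of mean ratio the members ran Mt2, Slc39a8, Slc30a10, Mt1, Slc30a1, Mtf1, Slc39a10 and Slc39a14. Slc39a8 and Slc30a10 overlapped between the arrays, and so did Slc30a1, Mtf1 and Slc39a10. Mt2 lay above Slc39a8 and Mt1 below Slc30a10 on both arrays. With the processed signals Slc30a10 passed Mt2, at 1.61 against 1.45. With median centring Mt1, at 2.17, lay above Slc39a8 (1.84) and Slc30a10 (1.67), so its place in the order rests on the scaling. At least 2-fold higher on both arrays were 4 of the 8 members (Mt1, Mt2, Slc30a10 and Slc39a8), where 0.604% of all genes measured were. With the processed signals Mt1, at 0.92 and 0.93, was below 2-fold on both arrays, which left 3 of the 8 members, while 712 genes in all passed that size in place of 120. None of the 8 members was at least 2-fold lower on both arrays, where 8.11% of all genes were. The median over the members was 0.70 against -0.03 over all genes, and nothing is read from these figures because the members were picked on this comparison. All 8 were measured in both channels of both arrays by at least 1 probe, so no member passed the filter through 1 channel alone.

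**Figure D3:**
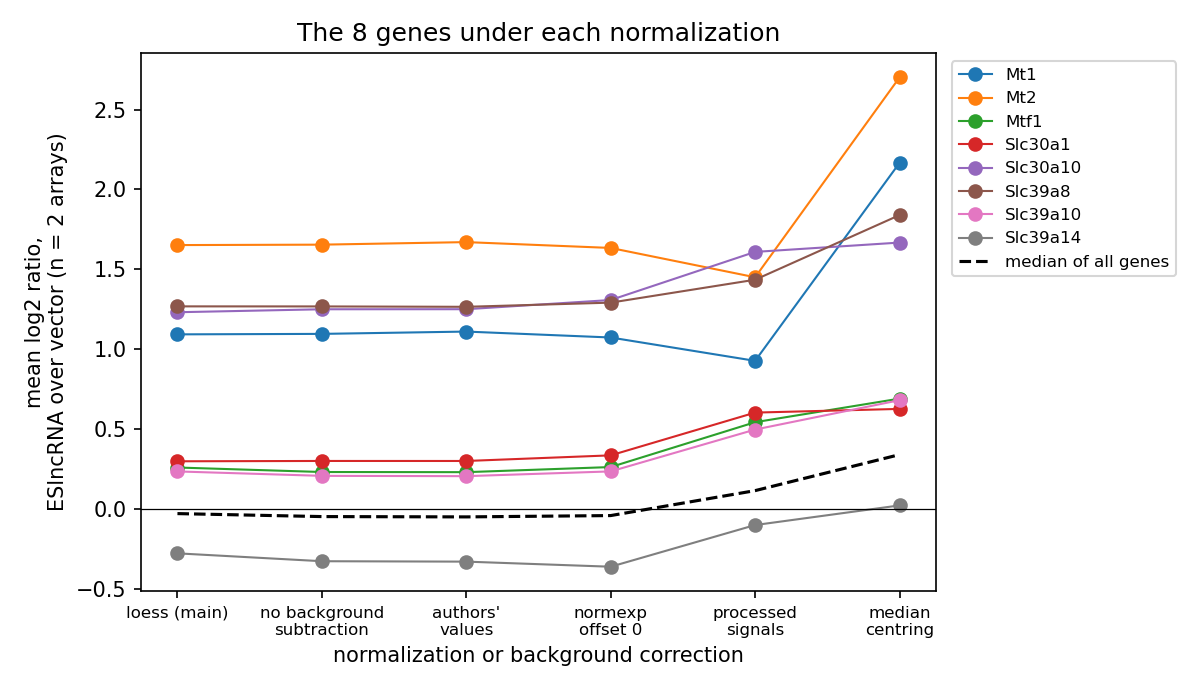
Mean log2 ratio (n = 2 arrays) of each of the 8 genes under 6 ways to correct background and normalize, with the median of all genes as a dashed line; lines join values of 1 gene. Mt2, Mt1, Slc39a8 and Slc30a10 stay well above the median of all genes throughout, with the metallothioneins highest under median centring, and Slc39a14 stays below it.

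The other genes of both transporter families were tested, since they were listed by family name and not by their values, although the members had been taken out of the same families. Of all 19864 genes, 26.3% were called higher and 36.8% lower at an adjusted p under 0.05 (limma). The split rests on the scaling, since 5223 genes higher and 7302 lower became 12511 higher and 3631 lower with median centring. Of the other 11 importers, 9 were measured, and 4 fell, 0 rose and 5 did not pass with limma, the same counts as at an unadjusted p under 0.05. With median centring 4 were called higher and 3 lower, and with the processed signals 2 higher and 3 lower. Slc39a4, the intestinal zinc importer, was 3.15-fold lower, with ratios of -1.58 and -1.73 (limma adjusted p = 1.26e-06). Slc39a11 was 3.10-fold lower, with ratios of -1.65 and -1.62 (limma adjusted p = 7.12e-07). Slc39a6, the partner of Slc39a10 in a membrane complex, was 2.11-fold lower, with ratios of -1.09 and -1.07 (limma adjusted p = 4.57e-06). Slc39a1, a plasma membrane importer, was 1.19-fold lower (limma adjusted p = 0.00491), a call lost with the processed signals, at -0.16. With median centring it was at 0.36, next to a median of all genes of 0.34. Slc39a7, which releases zinc from the endoplasmic reticulum, did not pass at -0.11, and was at 0.74 with median centring.

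Of the other 8 exporters, 5 were measured, and 2 fell, 1 rose and 2 did not pass. Slc30a4, a vesicular exporter, had ratios of -1.37 and -1.55, a mean of -1.46 ± 0.12 (limma adjusted p = 2.99e-06). Its ESlncRNA channel was well above background on 1 of 2 arrays, so the size is uncertain, from -1.29 with median centring to -2.36 with an offset of 0 and -2.85 with the processed signals. Slc30a7, a Golgi transporter, was 1.31-fold lower (limma adjusted p = 0.000729) by its brightest probe, while its other probes gave -0.34 and -0.05. This call was lost with median centring, at -0.0064, where the median of all genes was 0.34. Slc30a6 was 1.13-fold higher (limma adjusted p = 0.0177), and Slc30a5, its partner in the secretory pathway, did not pass at -0.02. The call of Slc30a6 was lost without background subtraction (0.15), with the authors' log2 values (0.14), with an offset of 0 and with the channels fitted as separate samples. Slc39a5, Slc39a12, Slc30a2, Slc30a3 and Slc30a8 were not well above background on both arrays and are not measured here.

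**Figure D4:**
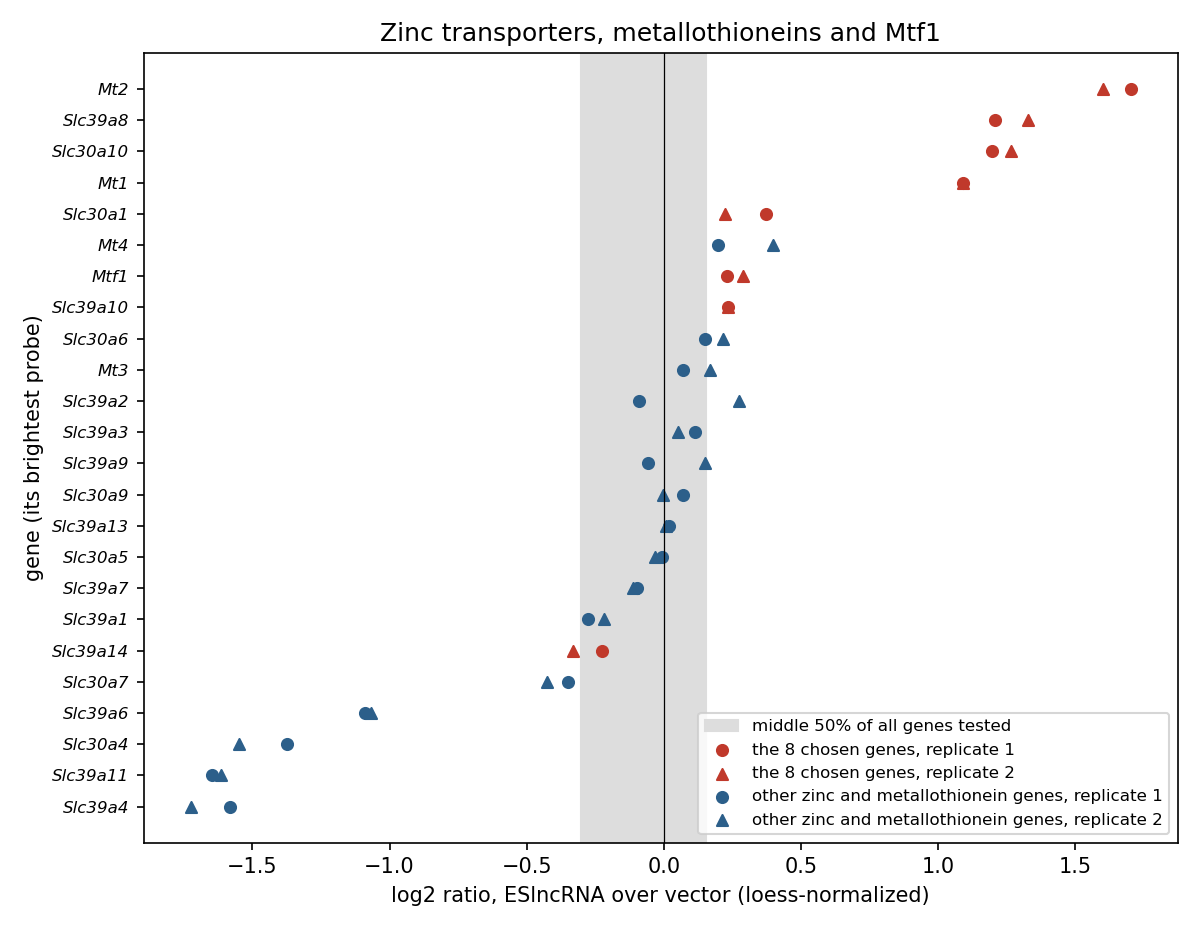
Log2 ratio of ESlncRNA over vector on the arrays of replicate 1 (circles) and replicate 2 (triangles) for the 24 zinc transporter, metallothionein and Mtf1 genes measured, the 8 chosen genes in red and the others in blue, over the middle 50% of all genes (grey band, -0.30 to 0.16). Mt2, Slc39a8, Slc30a10 and Mt1 stand above 1 on both arrays, and Slc39a6, Slc30a4, Slc39a11 and Slc39a4 stand below -1.

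Markers of other cells fell in the same RNA, and their part in these results was not tested. In bulk RNA fewer cells of a type and less RNA per cell cannot be told apart. Beside the counts below, 36.8% of all genes measured were called lower, a share that moved with the scaling. All 10 granulocyte markers fell, and their summed normalized signal was 1127850 to 1255050 with the vector and 43493 to 50077 with ESlncRNA. All 8 macrophage markers measured fell too (12026 to 12459 against 1467 to 1519), and C1qa and Cd163 were not measured. Of these 8, Adgre1, Vcam1, Cd68, Mrc1 and C1qc were not well above background with ESlncRNA on either array. They were kept through the vector channel alone, so their fall was favoured in advance and the ESlncRNA sum lies partly near background. Of 6 stem and progenitor markers 5 fell and 1 rose, and all 8 megakaryocyte and all 7 mast cell, basophil and eosinophil markers fell. Hepatocytes are a known source of metallothionein in fetal liver. Of their 11 markers measured 9 fell and 0 rose, with a summed signal of 8660 to 9506 against 3133 to 3280. The summed erythroid signal was 226644 to 259732 with the vector and 342123 to 384428 with ESlncRNA. Which cells gave the Mt1 and Mt2 signals was not tested. Of 8 endothelial and stromal markers 7 fell. Col4a1, Cdh5 and Tek among these were also kept through the vector channel alone. So were Hoxa9 of the stem markers, Ms4a2 and Epx of the mast cell, basophil and eosinophil markers, and Fgb and Ttr of the hepatocyte markers.

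Of 5 other reported MTF1 targets measured, 3 fell, 1 rose and 1 did not pass, with a median of -0.51. Over the whole array 36.8% of genes measured were called lower, and whether MTF1 activity differed was not tested. Csrp1 was 3.24-fold lower and Ndrg1 2.48-fold lower (limma adjusted p = 5.81e-07 and 1.79e-06), and Pgf, placental growth factor, was called lower with its ESlncRNA channel not well above background on either array, so no fold is given. Gclc, the catalytic subunit of glutathione synthesis, was 1.27-fold higher (limma adjusted p = 0.00142), and Selenow was at -0.02.

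Metallothionein genes are also known to respond to glucocorticoids and to interleukin-6 through STAT3, and other genes of both pathways were counted. Whether either pathway acted on Mt1 or Mt2 was not tested, and the lists hold receptors as well as response genes. Over the whole array 36.8% of genes measured were called lower and 26.3% higher, shares that moved with the scaling. Of 8 genes of interleukin-6 signalling measured all 8 fell, with a median of -1.50. For Bcl3 and Socs3 among them the ESlncRNA channel was well above background on 1 of 2 arrays. On the other array they were kept through the vector channel alone, which favoured a fall. Cebpd was 10.9-fold lower, Il6ra, the interleukin-6 receptor, 6.64-fold lower and Il6st, its signalling chain gp130, 3.28-fold lower. Several of these are also genes of myeloid cells, whose markers fell as given above. Of 9 glucocorticoid response genes, 6 fell, 1 rose and 2 did not pass. Errfi1 was 2.25-fold lower, Zbtb16 2.11-fold lower and Cdkn1c, a cell cycle inhibitor, 1.86-fold higher.

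Genes that handle other metals moved both ways. Of 9 copper genes measured, 2 rose, 2 fell and 5 did not pass. Slc31a2 was 6.58-fold lower (limma adjusted p = 2.18e-07), Atp7b, a copper-exporting ATPase, 1.53-fold higher and Atp7a, the related ATPase, 1.19-fold lower. Of 6 other divalent metal transporters measured, 3 rose and 3 fell. Slc11a1, the divalent metal transporter of phagocytes, was 3.66-fold lower, Atp13a2 2.59-fold lower and Tmem165 1.88-fold lower. Slc40a1, the iron exporter ferroportin, was 1.70-fold higher, and Slc11a2, an iron importer, was 1.48-fold higher.

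The genes whose ratios lay nearest those of Mt1 were named by Euclidean distance over the 2 arrays, which is a likeness in size alone. They were 2700097O09Rik (distance 0.0163), Asb17 (0.0168), Ackr1, the Duffy antigen of red cells (0.0261), Nipa1 (0.0348) and Slc35f3 (0.0479).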

How the data were processed

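Per the file headers, spots were read by Feature Extraction 10.1.1.1 on a design annotated on mm9. The deposited spot values used here are intensities, the mean signal and median local background of both dyes. The deposited processed intensities, which the scanner software had corrected for background and dye, were an alternative, and the deposited log10 ratios served to check direction. A value table deposited by the authors holds a log2 value for each probe, made with limma per the submitters' processing notes, which correlated at r = 0.99996 on each array with log2 ratios from loess without background subtraction, so its scale and direction were taken from that match.

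Here normexp (offset 50) and loess were applied in R 4.3.3 with limma 3.58.1, with control spots and marked spots (284 and 308 of 59305) at weight 0. A probe entered where, on each array, either dye stood well above background, which left 26784 of 55681 probes and 19864 genes, each read by its brightest probe. Names came from the RefSeq table of GRCm38.p6 for 26413 probes by accession, for 3859 through the symbol and for 735 through a former symbol; the other 24674 kept the file's name. An intercept model was fitted with limma to all probes kept (1 residual degree of freedom, 5.28 prior), with Benjamini-Hochberg adjustment and a threshold of 0.05. The steps were run on simulated arrays with a constant dye factor and as many rises as falls. Those cannot speak to the bright-end trend or the uneven changes of the real arrays, and nothing is read from them here. Both arrays lay on 1 slide, so slide could not be tested as a batch, and the number of arrays limits the precision. The offset of normexp understates changes of dim probes. Each member probe had 1 spot per array, none marked. The input was 100 ng of RNA for replicate 2, per the labels.

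The members and gene lists were chosen with earlier results of these data known. Named genes were all members, every non-member transporter past the threshold, up to 3 genes of smallest p in each pathway list and the 5 genes nearest Mt1. Mt3, Slc39a7, Slc30a5, Gclc, Selenow, Slc40a1, Slc11a2 and the cell markers named, Klf1 among them, lie outside that rule and were named after their values were seen. The group of the brightest 2% of genes was first set at 1% and was widened once Mt1 and Mt2 were seen to lie outside it.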

Additional observations from a re-analysis of the deposited data

How the results depend on the processing

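Limits come first. Only 2 arrays of 1 dye orientation were compared, so a dye effect and an effect of ESlncRNA cannot be told apart, and the scaling sets how many genes lie on each side of 0. The median log2 ratio of all genes was -0.03, but 0.34 after median centring and 0.11 from the processed signals. Dim probes near background carry compressed ratios. Over the 10 settings Mt1 ran from 0.93 to 2.17, Mt2 from 1.45 to 2.70, Slc30a10 from 1.23 to 1.67, Slc39a8 from 1.27 to 1.84, Slc30a1 from 0.30 to 0.63, Mtf1 from 0.23 to 0.69 and Slc39a10 from 0.21 to 0.68, each above 0 and above the median of all genes in all 10. Slc39a14 ran from -0.36 to 0.022 and lay below that median in all 10. These 10 are not 10 separate checks. The ratios of the 7 members with 1 probe cannot move with the background filter, the averaging of probes or the replicate block. Mt1 was at 1.09 in each of those settings, as reported. The authors' log2 values nearly repeat the setting without background subtraction. The members were also picked on this comparison. The cause of the changes below was not tested. With median centring 12511 genes were called higher and 3631 lower (5223 and 7302 as reported), 4 other importers higher (0), 3 other exporters higher (1) and 1 lower (2), and 18 pathway genes higher (7). The signs of Slc39a7 (0.74), Slc39a1 (0.36), Slc30a5 (0.55) and Slc39a14 (0.022) turned there. With the processed signals 4704 genes were called lower, 2 other importers higher and 2 other exporters higher. Of the other exporters, 0 were called higher with an offset of 0, without background subtraction, with the authors' log2 values or with no replicate block. When both channels had to pass background, 1 of these other exporters was called lower. The array pairs its 2 channels, and with no replicate block, the 4 channels fitted as separate samples, 3447 genes were called higher. At least 2-fold higher on both arrays were 120 genes as reported, 1266 with median centring, 712 with the processed signals, 368 with an offset of 0, 203 without background subtraction and 204 with the authors' log2 values. At least 2-fold lower were 1610 as reported and 2460 with the processed signals. A single array leaves no test, and by size alone it gave 147 to 167 genes higher and 1689 to 1721 lower.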
